A study of Zea mays with 2 samples.

Results

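Chromosome 10 of maize (Zea mays) was described in endosperm RNA of the fl4 mutant and of the wild type, both at 19 days after pollination. A feature is 1 entry of the deposited tables, given as a chromosome with a start and an end, and its span is the distance covered, in bp. Of the 4551 features listed on chromosome 10, 2660 (58.4%) were selected on their level, 1 FPKM or more in either of the 2 libraries, out of 38591 such features in the series. FPKM is a count of sequenced fragments divided by feature length and library size, so a level in FPKM is already per length. The 2660 features lie on 2420 distinct spans, and the features listed on the chromosome run from 195458 to 150093383 bp. Because the levels that chose the members also enter every ratio, all differences between the genotypes are descriptions. No genome build is stated and no gene name is paired with a position, so every locus is named by its position alone.

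The labels give 1 library for the fl4 mutant and 1 for the wild type, with kernel as source and endosperm as tissue. The design text of the series speaks of triplicates, but each file holds a single value per feature, and how replicates were combined is not stated. No value therefore carries an error between plants and no p-value can be had. Strain background and number of plants are likewise not stated. Endosperm markers could not be checked, because the features have no gene names. In bulk RNA, fewer cells of a type and less RNA per cell cannot be told apart.

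In the weeks after pollination maize endosperm lays down starch and zeins, the storage proteins of the kernel. Kernels of the floury4 mutant are soft and opaque, and the mutation is known to alter an alpha-zein gene of another chromosome. On maize chromosomes, genes are dense towards both ends and thin out around the centromere, where retrotransposons make up most of the DNA. Chromosome 10 carries r1, a regulator of anthocyanin colour in the aleurone, and opaque7, a gene needed for hard endosperm. Neither gene was located here, since no position could be tied to a name.

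Listed and expressed loci followed that layout, though expressed loci were not counted for each genotype apart. The first 5 Mb held 260 listed spans, the window from 45 to 50 Mb held 61, and the window from 140 to 145 Mb held 272. Spans with a feature of at least 1 FPKM in either library numbered 158, 24 and 178 in these 3 windows. The kept features of chromosome 10 summed to 56095 FPKM for fl4 and 53082 FPKM for the wild type, 4.95% and 5.17% of the library totals. Over features above 0 in both libraries the sums were 55874 and 52677 FPKM, a log2 ratio of 0.085 that turned to -0.055 with library totals made equal. The median feature stood at 5.68 FPKM for fl4 and 5.54 FPKM for the wild type.

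**Figure D1:**
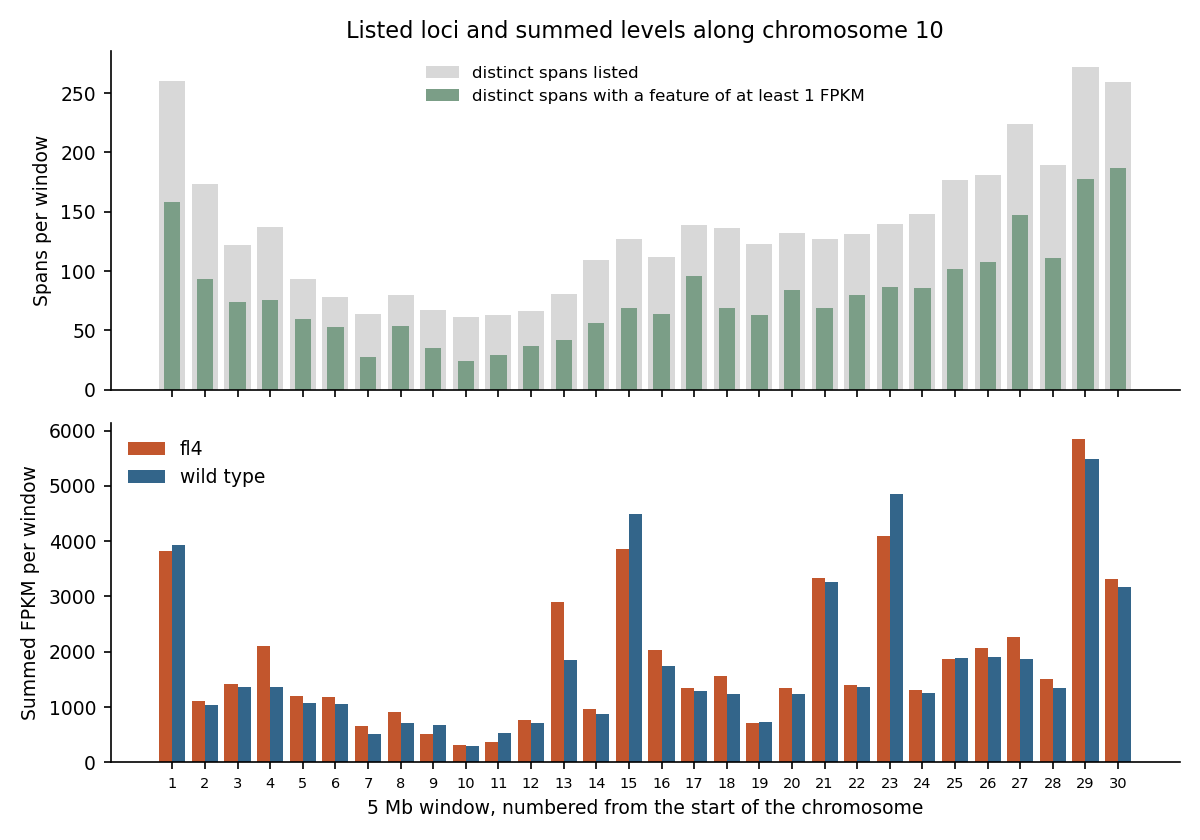
Number of distinct spans (top; all listed spans in grey, those with a feature of at least 1 FPKM in green) and summed FPKM of each library (bottom) in the 30 windows of 5 Mb along chromosome 10, numbered from its start; each library is 1 bar. Spans are few in windows 7 to 12 and many at both ends, whereas the summed level has single high windows, such as windows 15 and 23, that are not rich in spans.

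Of the 151 windows of 1 Mb, 10 reached 1000 FPKM in either library when features listed at 0 were left out of the sums. With all features counted, these 10 windows held 37.2% of the chromosome's FPKM for fl4 and 38.4% for the wild type. Of the 10 windows 5 were higher and 5 lower in fl4 as deposited, but the log2 ratios of the windows from 4 to 5 Mb (0.0099) and from 141 to 142 Mb (0.023) turned to -0.13 and -0.12 with equal totals. The 2 largest ratios among them were upward: 2.01-fold in the window from 17 to 18 Mb and 1.82-fold in the window from 63 to 64 Mb.

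In some of the 10 windows many features shared the level. The leading feature gave 13.6% of the fl4 sum from 148 to 149 Mb (71 features), 21.3% from 141 to 142 Mb (52 features) and 33.2% from 4 to 5 Mb (54 features). In others a single feature gave most of it.

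The 5 features with the highest mean level differed by less than 2-fold. The highest of them, at chr10:74687317-74687613 and 297 bp long, stood at 2301 FPKM for fl4 and 3022 FPKM for the wild type. It gave 73.5% of the fl4 sum and 79.2% of the wild type sum of the window from 74 to 75 Mb. The feature at chr10:113151130-113151217, which spans 88 bp, stood at 1931 and 2220 FPKM. These 2 features were lower in the mutant by 1.31-fold and 1.15-fold. The feature at chr10:101520597-101521474 stood at 1835 FPKM for fl4 and 1922 FPKM for the wild type and supplied 88.3% and 90.04% of its 1 Mb window. The feature at chr10:144442269-144442574 stood at 1405 and 1142 FPKM, 1.23-fold higher in fl4. The fifth, on the span chr10:63613517-63622627, stood at 1278 FPKM for fl4 and 680 FPKM for the wild type, 1.88-fold higher. Of the 5, 3 lay in sparse surroundings, with 3 other listed spans within 100 kb.

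The locus at 63 to 64 Mb is listed with 4 features on 1 span of 9111 bp, and they did not move alike. A second feature on the same span stood at 822 FPKM for fl4 and 405 FPKM for the wild type, a log2 ratio of 1.02. The other 2 features stood at 7.78 and 3.21 FPKM for fl4 against 8.26 and 3.31 FPKM for the wild type. The 2 abundant features were thus higher in fl4 while the 2 scarce ones were level. Where several features share a span, reads of 1 may have been assigned to another, and their separate values are uncertain.

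Differences between the genotypes were expressed as log2((fl4 FPKM + 1)/(wild type FPKM + 1)), which understates the change of low features. A feature was counted as differing when this ratio reached 2-fold, which is no statistical test. Of the 2660 features, 2326 (87.4%) lay within 2-fold. At least 2-fold higher in fl4 were 184 features (6.92%), against 6.03% of all features of the series. At least 2-fold lower were 150 (5.64%), against 4.58%. In either direction 334 differed, 12.6% (Wilson 95% interval 11.4% to 13.9%), against 10.6% over the series. The interval treats features as independent and covers counting only. Equalising the library totals, with the 20 most abundant features of the series left aside, shifted every log2 ratio down by 0.14, and the counts became 153 higher and 176 lower. Which direction prevailed thus depended on the scaling.

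Among the other numbered chromosomes the share of 2-fold differences ran from 8.87% to 12.9%, and chromosome 4 was the one chromosome above chromosome 10. If each span class of chromosome 10 had differed as often as the same class on the other numbered chromosomes, 288 features would have differed instead of 334. With classes of span and level together the figure was 289. Among features spanning at least 300 bp, 197 of 2348 (8.39%) differed on chromosome 10, against 6.75% over the series, with 111 higher and 86 lower (3.78% and 2.97% over the series). Among the 2587 features above 0 in both libraries, 261 (10.1%) differed, 144 higher and 117 lower, against 8.16%, 4.48% and 3.68% over the series. For spans of at least 300 bp chromosome 4, at 8.93%, was again the one chromosome with a higher share.

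**Figure D2:**
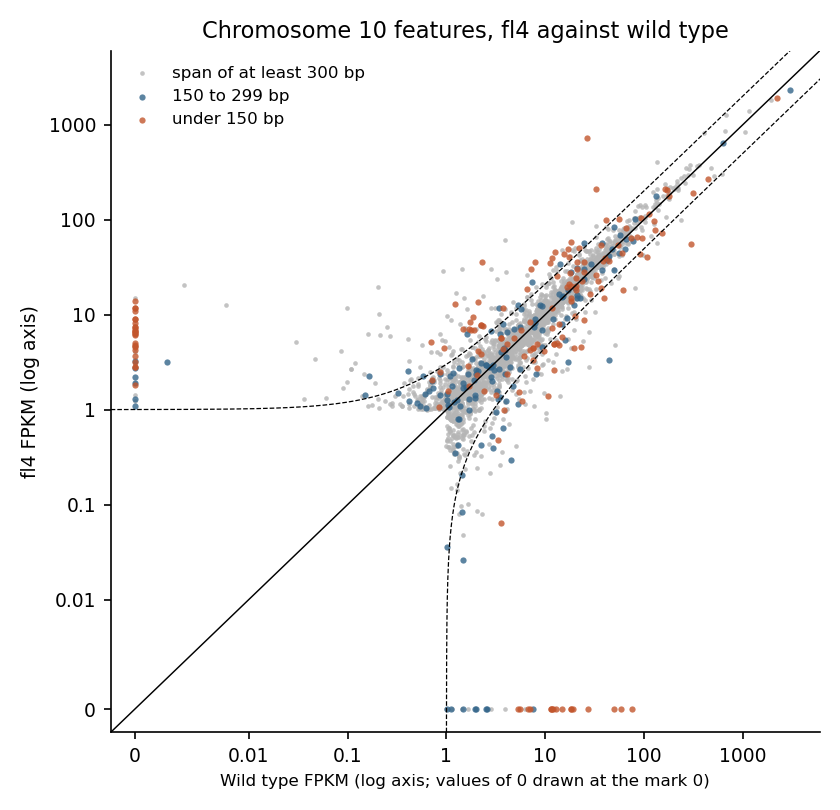
FPKM of the 2660 chromosome 10 features in fl4 (vertical, log axis) against the wild type (horizontal, log axis), 1 point per feature, coloured by span. The solid line marks equality, the dashed curves the 2-fold limits with 1 FPKM added. Short features (orange, blue) lie away from the diagonal and on the 0 marks more often than features of at least 300 bp (grey).

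The filter itself shapes the low end. The 74 features with a higher value from 1.0008 to 1.0997 FPKM were kept and those with a higher value from 0.902 to 0.993 FPKM, also 74 in number, were not. With 1 FPKM added, a feature whose values all lie under 1 FPKM cannot reach 2-fold, so the 1891 features below the limit add none to the counts.

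The share of 2-fold differences varied widely with span. Of 164 features under 150 bp, 95 differed 2-fold, 55 higher and 40 lower in fl4, a share of 57.9% (Wilson 95% interval 50.3% to 65.2%) against 52.8% over the series. The share fell through 28.4% from 150 bp, 19.2% from 300 bp, 14.6% from 600 bp and 9.79% from 1100 bp, each class ending where the next began. On the other numbered chromosomes these classes stood at 30.6%, 17.1%, 12.4% and 7.48%, so the decline with span was not particular to chromosome 10. At 2000 bp or more it was 5.71%, with 49 features higher and 38 lower among 1524. The longest class, 73 features of at least 20000 bp, held 1 higher and 1 lower feature. Its share, 2.74%, lay below the 6.42% of the same class on the other numbered chromosomes, where 62 features differed, but 2 features are too few to tell the classes apart.

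The spread of the log2 ratio narrowed in the same order up to the class from 2000 bp, with a robust SD of 1.92 under 150 bp, 0.80 from 150 to under 300 bp and 0.28 from 2000 to under 5000 bp. Over the 3 longer classes it lay between 0.26 and 0.31. Short features did not have the lowest FPKM, a measure per length that does not give read numbers. Their median level was 7.40 FPKM for fl4 and 11.3 FPKM for the wild type, above the 2.88 and 2.41 FPKM of features from 300 to under 600 bp. Of the 79 short features with a higher value from 10 to under 100 FPKM, 46 (58.2%) differed 2-fold. Of the 15 from 100 to under 1000 FPKM, 5 (33.3%) did. On the other numbered chromosomes the shares in these classes were 54.1% and 28.9%. Read counts behind these values are unknown, and the part that few reads on a short feature play was not tested.

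**Figure D3:**
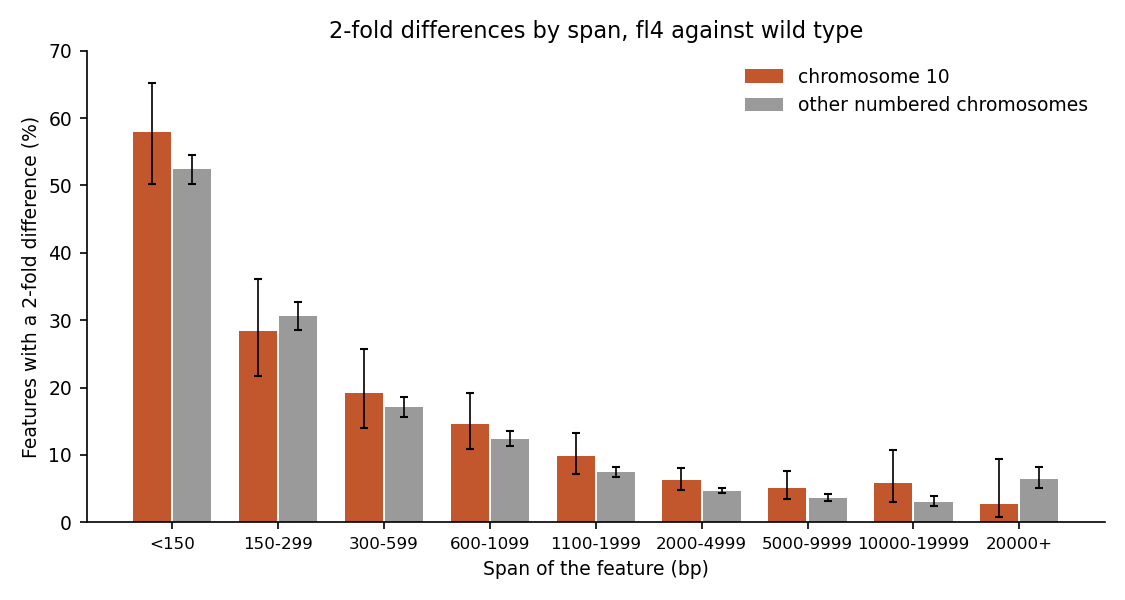
Share of features with a 2-fold difference (vertical, %) in 9 span classes (horizontal, bp) on chromosome 10 (orange) and on the other numbered chromosomes (grey); error bars are Wilson 95% intervals over features. The share on chromosome 10 falls from 57.9% under 150 bp to 2.74% at 20000 bp or more, and lies above that of the other chromosomes in 7 of the 9 classes.

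Most features listed at exactly 0 in 1 library were short. There were 73 of them on chromosome 10 (2.74%, against 2.68% over the series), 33 at 0 in fl4 (1.24%, against 1.003%) and 40 at 0 in the wild type (1.504%, against 1.67%). Of the 33, 17 were under 150 bp and 25 under 300 bp. Of the 40, 26 and 32 were. Among all features under 150 bp, 43 of 164 (26.2%) were at 0 in 1 library, against 501 of 1991 (25.2%) on the other numbered chromosomes. Among features of at least 2000 bp, 1 was listed at 0 in fl4 and 3 in the wild type. Since tables of FPKM alone do not tell a failed estimate from no transcript, these features get no fold. All 73 count as 2-fold different by construction, having at least 1 FPKM in the other library.

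On chromosome 10 the features at 0 in fl4 stood higher in the other library than the reverse. Those at 0 in fl4 had wild type levels of 1.002 to 74.95 FPKM, with a median of 6.22 FPKM, and 13 reached 10 FPKM. Those at 0 in the wild type had fl4 levels of 1.08 to 14.8 FPKM, with a median of 4.68 FPKM, and 5 reached 10 FPKM. All 13 of the former and 4 of the latter 5 spanned less than 150 bp. The exception was a feature of 4954 bp in the window from 35 to 36 Mb, with 14.8 FPKM in fl4, on a span that is listed with 3 features. On the other numbered chromosomes, 106 of the 354 features at 0 in fl4 stood from 10 to under 100 FPKM in the wild type. Of the 606 at 0 in the wild type there, 161 stood in that range in fl4. From 100 to under 1000 FPKM stood 2 of the 354 and 11 of the 606. At 1000 FPKM or more the numbers were 0 and 8. The features at 0 on chromosome 10 made up little of its level, 0.764% of the wild type sum and 0.393% of the fl4 sum.

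Zeros were scattered along the chromosome. At least 1 was found in 24 of the 31 windows of 5 Mb, and the most, 8, lay from 125 to 130 Mb. There 3 neighbouring features within 2.23 kb of the window from 127 to 128 Mb were all listed at 0 in fl4. Their wild type levels were 1.14, 49.9 and 7.53 FPKM and their spans 340, 129 and 187 bp. The 2 highest wild type levels of features at 0 in fl4 lay elsewhere, 74.95 FPKM in the window from 6 to 7 Mb and 58.6 FPKM in the window from 91 to 92 Mb, on spans of 113 and 94 bp.

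The share of 2-fold differences was somewhat higher in the densest surroundings, by a margin that depended on the settings. Density was taken as the number of other listed spans with a midpoint within 100 kb. The features were divided at the quartiles of density, ties kept together, into 4 classes of 804, 745, 506 and 605 features. The share was 11.7% with 0 to 4 neighbours, 11.8% with 5 to 7, 12.8% with 8 to 10 and 14.4% with 11 to 27. The Wilson 95% intervals of the first and the last class, 9.65% to 14.1% and 11.8% to 17.4%, overlap. They did not overlap with 0.1 FPKM added in place of 1 (13.9% to 19.0% and 20.3% to 27.01%) or at a 1.5-fold limit (18.8% to 24.5% and 26.2% to 33.5%). Among features of at least 300 bp the 4 shares were 8.44%, 7.09%, 8.56% and 9.85%. On the other numbered chromosomes, divided at the same neighbour counts, they were 9.94%, 10.7%, 10.9% and 10.4%. Features at 0 made up 22 of 804 in the sparsest class and 16 of 605 in the densest.

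High levels were found in both sparse and dense surroundings. The sparsest class held 30.2% of the features, 34 of the 87 that reached 100 FPKM, and 38.7% of the chromosome's fl4 level and 39.0% of its wild type level. The densest class held 22.7% of the features, 23 of the 87, and 25.8% and 27.6% of the level. Most of the densest class lay at the ends of the chromosome, with 131 of its 605 features in the first 10 Mb and 326 beyond 130 Mb.

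The share of 2-fold differences varied along the chromosome, and the stretches described here were chosen after the values were seen and have no test. Over the 30 windows of 5 Mb with at least 20 features the share ran from 4.27% to 23.4%, with a median of 11.9%. The 3 highest windows began at 70, 80 and 85 Mb, with 18 of 77, 20 of 100 and 14 of 74 features. Of the 385 windows of the other numbered chromosomes with at least 20 features, 21, 32 and 39 had a share as high, and the highest stood at 43.3%. The window between them, from 75 to 80 Mb, had 9 of 70 (12.9%), near the median. Next came the window from 130 to 135 Mb with 29 of 162 (17.9%) and the first 5 Mb with 29 of 165 (17.6%). The lowest window, from 135 to 140 Mb with 5 of 117, lay directly beside it. Higher and lower features occurred together in every one of these 30 windows. Higher ones were the more frequent in 15 windows, lower ones in 10, and 5 had as many of each. The excess of lower features was largest in the first 5 Mb, with 11 higher and 18 lower, and from 125 to 130 Mb, with 4 higher and 10 lower. Among spans of at least 300 bp these windows held 6 higher and 7 lower, and 1 higher and 4 lower. The largest such excess then lay from 115 to 120 Mb, with 1 higher and 7 lower.

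**Figure D4:**
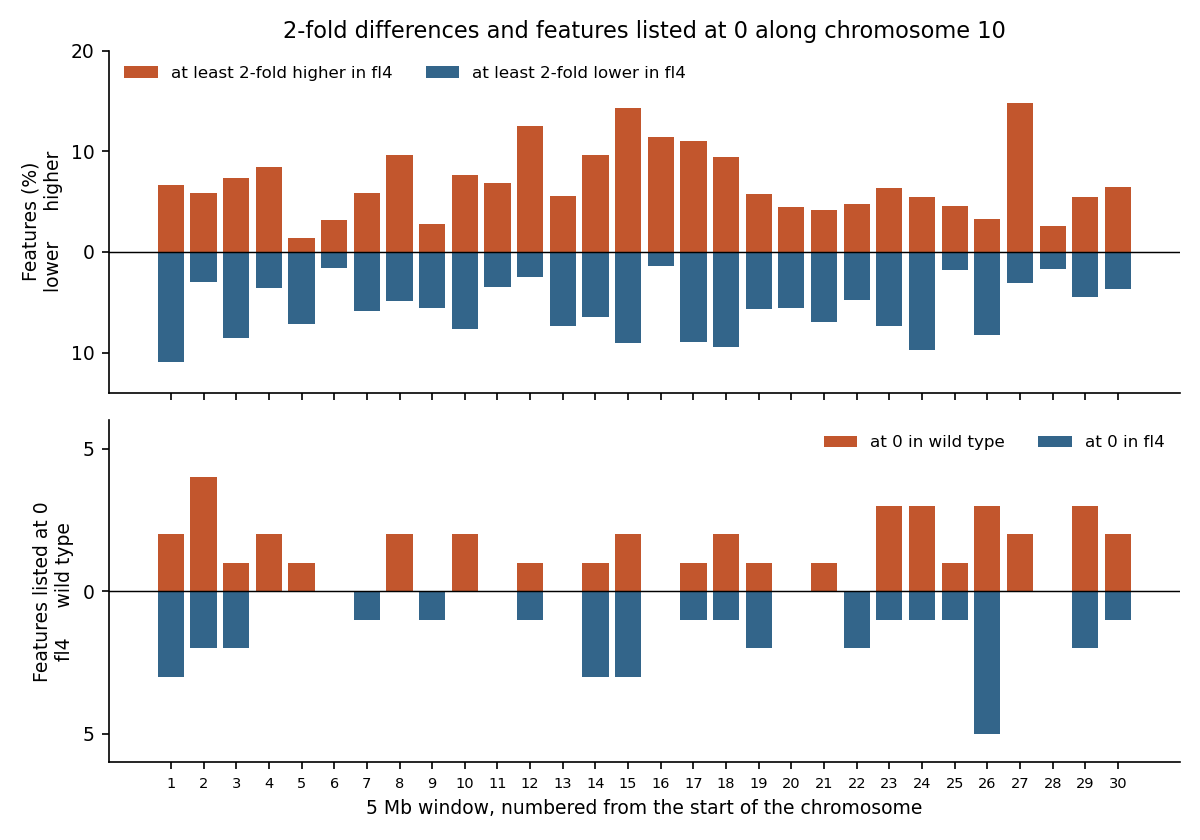
Share of features at least 2-fold higher (orange, upwards) or lower (blue, downwards) in fl4 (top, %) and number of features listed at 0 in the wild type (orange, upwards) or in fl4 (blue, downwards; bottom) in the 30 windows of 5 Mb along chromosome 10, numbered from its start. Window 27 has 14.8% higher and 3.09% lower features, while windows 15, 17 and 18 have many of both kinds.

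The window from 130 to 135 Mb stood out by direction. It held 24 features at least 2-fold higher in fl4 and 5 lower, and among spans of at least 300 bp it held 20 higher and 1 lower. No other 5 Mb window of the numbered chromosomes, among 385 with at least 20 features, had an excess of 19 in either direction. The excess is a difference of counts and can grow with the number of features. This window, chosen after the values were seen, held 162 features. Its share of 2-fold differences was less unusual, since 48 of those 385 windows had one as high. Outside this window and the stretch from 70 to 90 Mb, chromosome 10 had 123 higher (5.65%) and 121 lower (5.56%) features. Over the series the shares were 6.03% and 4.58%. Both parts left out were chosen on their values and held more higher than lower features, which evens the rest by construction. With equal totals, the window from 130 to 135 Mb kept 20 higher and 6 lower features.

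The 24 higher features lay on 22 spans between 131 and 135 Mb, and were spread over the 4 windows of 1 Mb there as 6, 7, 6 and 5. Their levels ran from 1.40 to 209.6 FPKM in fl4, with a median of 8.002 FPKM, and from 0 to 32.9 FPKM in the wild type, with a median of 1.58 FPKM. They summed to 507 FPKM for fl4 and 78.9 FPKM for the wild type. Of the 24, 11 reached 4-fold, 11 reached 10 FPKM and for 2 the wild type value was 0. Over all features of each 1 Mb the median log2 ratio was 0.79 from 131 Mb (16 features), 0.21 from 132 Mb, 0.29 from 133 Mb and -0.055 from 134 Mb. From 130 to 131 Mb, where none of the 36 features was 2-fold higher, it was -0.057. From 131 to 132 Mb the lower quartile, 0.27, was above 0 as well. Over all 162 features from 130 to 135 Mb the median was 0.071, near the 0.065 of chromosome 10. The 133 features there within 2-fold had a median of -0.012, with 66 above 0 and 67 below.

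The 5 largest log2 ratios of the window lay between 132 and 134 Mb. From 132 to 133 Mb, a span of 1639 bp listed with 2 features stood at 61.1 and 19.3 FPKM for fl4 against 3.91 and 0.204 FPKM for the wild type. A neighbouring feature of 686 bp stood at 30.5 and 2.83 FPKM. A longer span of 18807 bp in the same 1 Mb held 2 more higher features, at 23.8 and 7.41 FPKM for fl4 and 3.23 and 0.253 FPKM for the wild type. These 5 features were each at least 5.87-fold higher in fl4 on the scale with 1 FPKM added. From 133 to 134 Mb, a feature of 459 bp stood at 30.4 FPKM for fl4 and 1.44 FPKM for the wild type. From 134 to 135 Mb, a feature of 87 bp had the highest level of the 24, 209.6 FPKM against 32.9 FPKM.

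**Figure D5:**
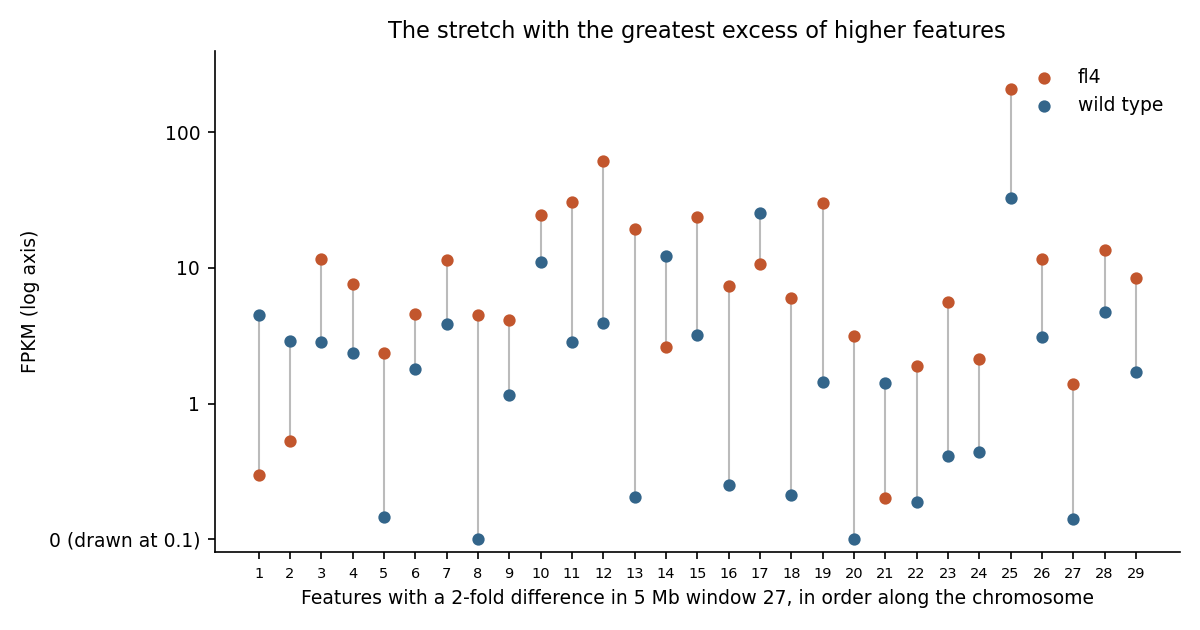
FPKM (vertical, log axis, values of 0 drawn at 0.1) in fl4 (orange) and in the wild type (blue) of the 29 features with a 2-fold difference between 130 and 135 Mb of chromosome 10, in their order along the chromosome; each grey line joins the 2 values of 1 feature. In 24 of the 29 the fl4 value is the higher one, and the first 2 features are both lower in fl4.

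The stretch from 70 to 90 Mb differed in both directions. Of its 321 features, 61 (19.0%) differed 2-fold, 37 higher and 24 lower in fl4. Among spans of at least 300 bp the figures were 34 of 273 (12.5%), 20 higher and 14 lower. Of the 321 features 28 spanned less than 150 bp. The rest of the chromosome, without this stretch and without 130 to 135 Mb, stood at 11.2%, or at 7.37% for spans of at least 300 bp. Over the series these shares were 10.6% and 6.75%. The parts left out were chosen after the values were seen, which lowers the share of the rest.

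Within that stretch, neighbours could change in opposite directions. From 80 to 81 Mb, 4 features were higher and 4 lower among 31. A feature of 695 bp there stood at 2.81 FPKM for fl4 and 27.9 FPKM for the wild type, and 1 of 573 bp at 0.930 and 10.3 FPKM. Further on in the same 1 Mb, both features of a span of 6613 bp were higher in fl4, at 52.4 and 11.8 FPKM against 24.8 and 5.11 FPKM. With only spans that hold a kept feature counted, the longest run of adjacent differing spans on the chromosome lay from 74 to 75 Mb, 6 spans within 259 kb. It had 4 higher and 2 lower spans, and 4 of the 6 spanned less than 150 bp.

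Across the chromosome, differing loci lay next to each other somewhat more often than their overall share. Neighbours were taken among spans with a kept feature, so listed spans below the limit were passed over. Of 2420 such spans 325 (13.4%) held a feature with a 2-fold difference. For 64 of these 325 (19.7%) the next such span along the chromosome also differed. In 43 of the 64 pairs (67.2%) both spans moved in the same direction, near the 404 of 612 (66.0%) on the other numbered chromosomes. On the other numbered chromosomes 11.3% of spans differed and the next span did so in 16.7%. Runs of 3 or more adjacent differing spans numbered 11 among the 2420 spans of chromosome 10 and 89 among 32343 spans of the others. Among 196 spans with exactly 2 kept features, 169 had neither feature past 2-fold. On 7 spans both features passed it in the same direction, on 20 only 1 did, and on 0 the 2 passed it in opposite directions.

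With features at 0 left out, 115 of the 1020 that reached 10 FPKM (11.3%, against 8.65% over the series) differed 2-fold, 69 higher and 46 lower. The largest log2 ratio, 4.71, belonged to the feature of 93 bp at chr10:17511064-17511156, with 725 FPKM for fl4 and 26.8 FPKM for the wild type. This feature made the whole difference of its 1 Mb window, whose other features summed to 614 and 641 FPKM. The next, 4.41, was that of chr10:79672561-79672874, a feature of 314 bp with 20.3 FPKM for fl4 and 0.0022 FPKM for the wild type.

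Among the same 1020 features, the lowest ratio was that of chr10:52658505-52658739, with 3.34 FPKM for fl4 and 44.6 FPKM for the wild type, a log2 ratio of -3.39. A feature on the span chr10:80144054-80155070, which covers 11017 bp, had 4.79 and 50.7 FPKM and thus a log2 ratio of -3.16. The first of these is a short feature of 235 bp, with 6 other listed spans within 100 kb, in a 5 Mb window with 63 listed spans. The second is a long locus within the stretch from 70 to 90 Mb.

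Among abundant features, 10 of the 87 that reached 100 FPKM (11.5%, against 10.9% over the series) differed 2-fold, 4 higher and 6 lower, and 5 of the 10 spanned less than 150 bp. Besides those already named, a feature of 927 bp from 87 to 88 Mb stood at 399.9 FPKM for fl4 and 135 FPKM for the wild type, a log2 ratio of 1.56. A feature of 3193 bp from 113 to 114 Mb had 300.4 and 619 FPKM and a log2 ratio of -1.04. From 148 to 149 Mb, a feature of 1234 bp stood at 98.6 and 236 FPKM and 1 of 10383 bp at 56.2 and 134 FPKM, both lower in fl4. Of the short ones, a feature of 100 bp from 41 to 42 Mb stood at 55.1 FPKM for fl4 and 297 FPKM for the wild type. A feature of 93 bp from 142 to 143 Mb stood at 72.4 and 151 FPKM, and 1 of 126 bp from 1 to 2 Mb at 40.5 and 108 FPKM.

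Just under that level, a span of 5618 bp from 144 to 145 Mb was listed with 3 features, all higher in fl4. They stood at 95.2, 16.8 and 11.8 FPKM in the mutant and at 18.7, 1.25 and 0.0985 FPKM in the wild type. The log2 ratios were 2.29, 2.98 and 3.54, so the 3 entries of the locus went in 1 direction.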

How the data were processed

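Endosperm RNA of 1 fl4 library and 1 wild type library was analysed. The deposited values are FPKM, computed by the authors, per the file headers. The aligner Bowtie, version 0.12.2, appears in the submitters' processing notes. For the quantification program, the build and the annotation, the sources used here give no name. Both tables share 65535 features, of which 8 have unreadable positions and were left out. The RefSeq gene table matched 0 of 4551 chromosome 10 identifiers, and its coordinates were not used. No sequence is shown because no genome of the files' build was used here.

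Features were placed by their midpoint in windows counted from the start of the chromosome. Ratios used a pseudocount of 1 FPKM, a minimum of 1 FPKM in either library and a 2-fold rule of size. Depth is unknown. In the 1000 features lowest in the product of FPKM and span, the commonest log2 ratio (rounded to 3 decimals) was shared by 4, so steps of single reads were not seen. The calculation was tested on simulated data.

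Positions are printed for the 5 features with the highest mean and, from 10 FPKM and above 0 in both libraries, the 2 highest and 2 lowest ratios. Other features are described by their 1 Mb window. The region and the classes were chosen with earlier results of these data known, and single loci and stretches after their values were seen. Alternatives covered pseudocount, filter, fold, scaling, zeros, span, sums per span, density radius and window offset. Python 3.11.15, numpy 2.4.6, pandas 2.3.3 and scipy 1.17.1 were used.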

Additional observations from a re-analysis of the deposited data

How the results depend on the processing

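Recomputed under other settings, 116 of 186 values kept within set bounds (1.5 times for a count, the Wilson 95% interval for a share, 0.1 for a log2 ratio), 64 moved beyond them and 6 reversed. The counts of 184 higher and 150 lower features became 278 and 232 when 0.1 FPKM was added instead of 1, 78 and 54 when 5 FPKM was added, and 111 and 86 once shorter spans than 300 bp were dropped. They became 360 and 289 at 1.5-fold and 62 and 38 at 4-fold, and lower features fell to 92 with a minimum of 5 FPKM. The share at 0 became 6.83% without a filter and 0.681% without spans under 300 bp. Spans under 150 bp differed in 37.8% with 5 FPKM added, 43.0% without features at 0, 72.6% at 1.5-fold and 30.5% at 4-fold. Spans of at least 2000 bp differed in 10.1% with 0.1 FPKM added and 1.97% with 5 FPKM, in 13.3% at 1.5-fold and 1.44% at 4-fold, and in 3.76% when unfiltered. The short class thus stayed above the long one in each of these settings.

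The sparsest and densest classes (11.7% and 14.4%) moved to 16.3% and 23.5% with 0.1 FPKM added, 3.86% and 6.28% with 5 FPKM, and 6.63% and 8.92% when unfiltered. They became 21.5% and 29.8% at 1.5-fold, 2.99% and 4.79% at 4-fold, and 8.44% and 9.85% without spans under 300 bp. The Wilson intervals of the 2 classes were apart with 0.1 FPKM added and at 1.5-fold. Without features at 0 the sparsest class stood at 9.21%. With neighbours counted within 500 kb the classes stood at 12.9% and 13.1%.

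The windows from 70, 80 and 85 Mb (23.4%, 20% and 18.9%) became 12.6%, 13.2% and 9.40% when unfiltered and 6.49%, 8% and 5.41% at 4-fold. The first 2 became 5.19% and 9% with 5 FPKM added. Without spans under 300 bp the windows from 70 and 85 Mb became 14.8% and 11.1%, and that from 80 Mb became 30% at 1.5-fold. From 130 to 135 Mb, higher features (14.8%) became 6.17% with 5 FPKM added, 9.56% when unfiltered, 22.2% at 1.5-fold and 6.79% at 4-fold. Lower features there (3.09%) became 8.02% with 0.1 FPKM added and 0.617% with 5 FPKM, 0.676% without spans under 300 bp, 11.1% at 1.5-fold and 0.617% at 4-fold. Higher features outnumbered lower ones in that window in every setting run. Leaving the filter out adds features that cannot reach 2-fold, which lowers shares of 2-fold differences by construction.

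Equal totals turned the chromosome's summed log2 ratio to -0.055, the median log2 ratio from 0.065 to -0.076, and the windows from 4 and 141 Mb to -0.13 and -0.12. Windows shifted by 0.5 Mb gave -0.21 for that from 4 Mb and 0.19 for that from 113 Mb, because they hold other features. The other causes were not tested. With 1 library for each genotype no replicate could be dropped. No paired analysis was possible because there is a single library on either side. Since the read depth is not known, its limits cannot be given.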

Other observations

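Some chromosome 10 features had the same value, to every deposited digit, in both libraries as a feature on another span. There were 36 of them (1.35% of the kept features, against 1.24% over the series), with 27 distinct pairs of values. In 23 of the 27 the spans concerned were of equal length, and in 9 at least 2 of them lay on chromosome 10. Of the 36 features 17 (47.2%) differed 2-fold, 8 higher and 9 lower in fl4. Over the series 10.6% of all features and 52.8% of those under 150 bp did so, and 17 of the 36 spanned less than 150 bp. Sequences of these features were not compared.

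Several of these features stand in the stretches described above. From 74 to 75 Mb, 2 features of 112 bp, both part of the run of 6 differing spans, each stood at 7.80 FPKM for fl4 and 2.22 FPKM for the wild type. From 132 to 133 Mb, 1 of the 5 lower features of the window from 130 Mb, with 2.64 FPKM for fl4 and 12.2 FPKM for the wild type, shared its values with features on 6 other spans, and the 7 spans lay on 6 chromosomes. From 124 to 126 Mb, a feature of 3349 bp and 1 of 2879 bp each recurred with the same values on a second span on chromosome 10, and neither differed 2-fold.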
